A study of Arabidopsis thaliana with 4 samples.

Results

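The genes described here encode proteins of the cytosolic 60S subunit, the larger of the ribosome's subunits, in Arabidopsis leaf cells. They were chosen by a list of 60 loci, and each locus whose probe set carries that gene alone in the platform annotation was kept whatever its signal. That gave 39 loci, each with 1 probe set, out of 13286 loci with such a probe set on the array. Of the other 21 listed loci, 4 appeared only on probe sets that carry several gene names and 17 had no named probe set in the tables used. The 39 loci belong to 18 of the 24 protein families on the list. The families L3, L5, L8, L10, L11 and L24 had no value. Family numbers follow the standard Arabidopsis naming of ribosomal proteins and are background, since the tables used give most of these genes only a locus number.

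RNA came from mesophyll protoplasts, which are photosynthetic leaf cells freed of their walls. In each of 2 experiments, cells pooled from 36 plants received 1 mg of either control plasmid DNA or a plasmid that expresses KIN10 (AT3G01090), and both were kept in light in mannitol buffer for 6 h. Each group has 2 Affymetrix arrays, 1 per experiment, and the experiments differed in operator, soil, plants, growth chamber, DNA and the facility that hybridized and scanned the arrays. All groups share the isolation of protoplasts and a transfection, and the sources used here name neither the plant strain, nor the plasmid's promoter, nor the share of cells that took up DNA.

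The large subunit holds the site where peptide bonds are formed and the tunnel through which the new chain leaves. In Arabidopsis each of its proteins is encoded by a small family of nearly alike genes, here called paralogues, and ribosomal proteins are needed in matched amounts with ribosomal RNA. KIN10 is a catalytic subunit of SnRK1, the plant relative of the energy-sensing kinases AMPK and SNF1, which is known for slowing growth and biosynthesis when energy is short. Making ribosomes is among the most costly things a plant cell does.

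The arrays had been scaled to a common mean, and values here are deposited linear signals unless a log2 change is named. Log2 changes are KIN10 minus control after the median of all probe sets that are not Affymetrix controls had been subtracted on each array. No probe set in the tables used carries KIN10 alone, so its transcript could not be used to check the labels. Of 13 listed mesophyll markers 2 had a value, and RCA (rubisco activase) lay between the 98.2th and 99.6th percentile of the 4 arrays and PRK (phosphoribulokinase) between the 77.5th and 93.6th. FAMA, 1 of 7 listed guard cell markers and the only one with a value, lay between the 42.0th and 53.4th percentile. TRY, 1 of 3 listed trichome markers, lay between the 13.6th and 43.4th. No listed marker of epidermis, phloem or xylem and bundle sheath had a value, so these cells were not checked. With KIN10 the log2 change of PRK was 0.90 ± 0.31 (SE, called higher), that of RCA 0.55 ± 0.35 and that of FAMA -0.45 ± 0.37 (neither called), and the part of cell makeup in the results below was not tested.

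All 39 genes had a lower signal with KIN10 than with control DNA in both experiments. As deposited, the signal with KIN10 was between 2.92% and 53.9% of the control signal in experiment 1 (median 32.9%) and between 15.0% and 57.2% in experiment 2 (median 36.9%). The control signals ran from 1376 to 29455 (median 15853) in experiment 1 and from 1149 to 30750.0 (median 16725) in experiment 2. With KIN10 they ran from 40.2 to 12942 (median 5505) and from 411.9 to 14093 (median 5014). As deposited, both KIN10 signals lay below both control signals for each of the 39 genes, which held for 28.3% of all 13648 probe sets tested. After median centring it held for 38 of the 39, against 20.2%. These are bulk samples of a fixed RNA amount, so fewer cells of a type and less RNA per cell cannot be told apart.

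**Figure D1:**
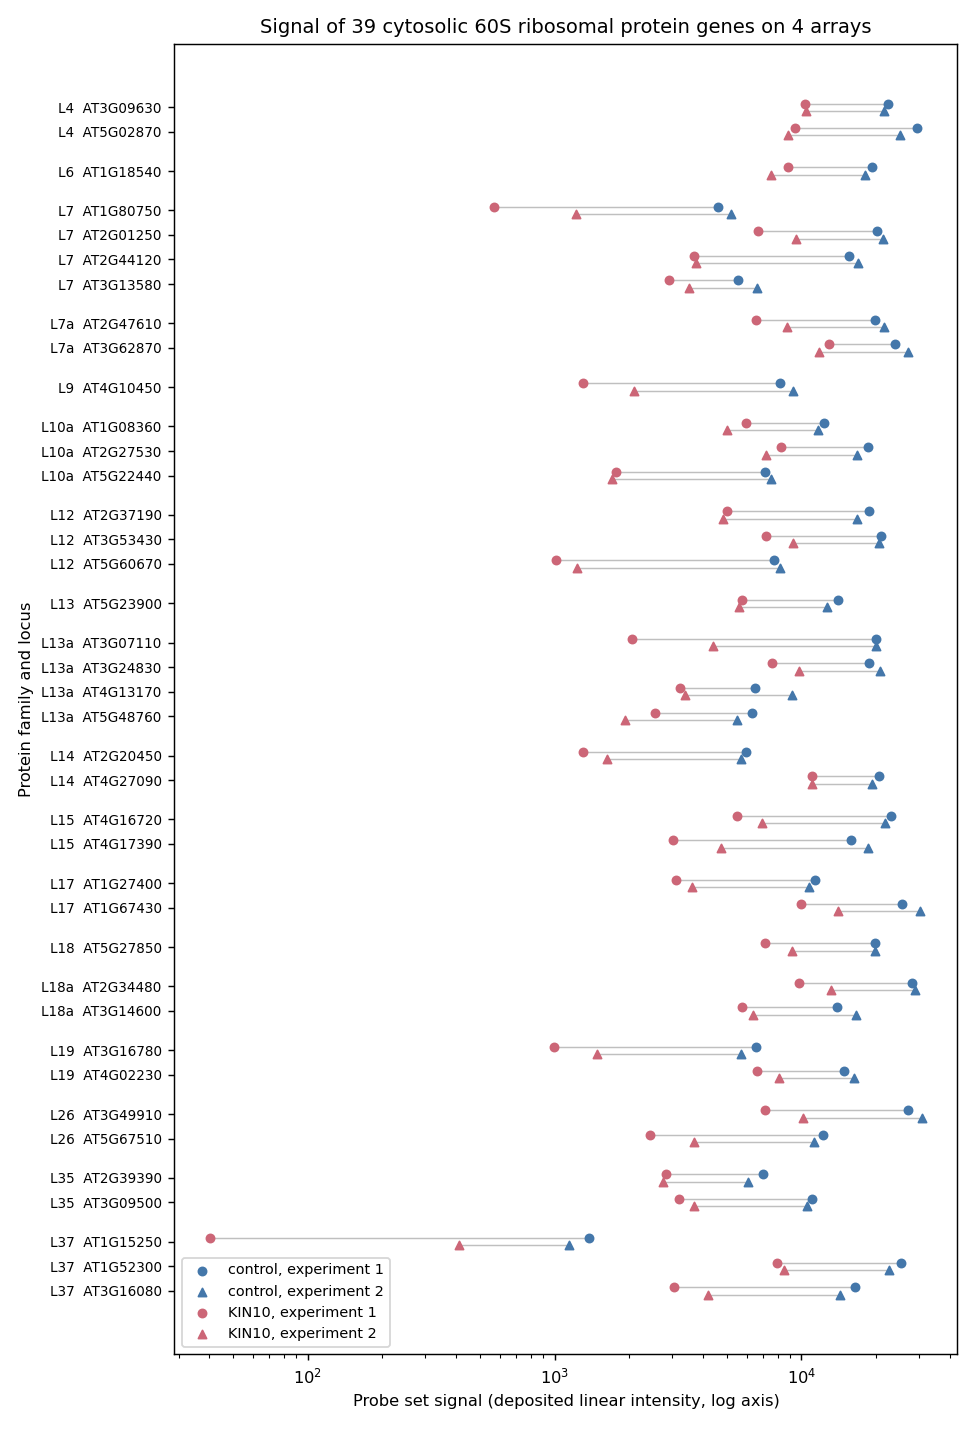
Deposited signal (log axis) of each of the 39 genes on the 4 arrays, ordered by protein family. Circles are experiment 1 and triangles experiment 2, blue is control DNA and red is KIN10, and a grey line joins the 2 arrays of an experiment. Every red point lies left of the blue point it is joined to, and AT1G15250 has the lowest signal, 40.2.

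All 39 genes passed the filter on low signals, and 38 were called lower with KIN10 (limma with the experiment as a block, adjusted p under 0.05). None rose, and 1 missed the threshold. Among all tested probe sets the share called lower was 15.5% and the share called higher 14.7%. The members had a median log2 change of -1.34, or 2.52-fold lower, against a median of 0.03 over all probe sets tested. A mean change of at least 2-fold was seen for 34 members, against 10.4% of all probe sets, and of at least 4-fold for 8, against 1.46%. Ranked from the largest fall upward, the members stood between the 0.0953th and the 15.8th percentile of all tested changes. Their quartiles were -1.92 and -1.11, so the falls differed in size but not in direction.

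The calls rest on pairing the arrays by experiment. Without the experiment as a block, limma called 0 of the 39 (adjusted p from 0.0814 to 0.843), while 15 had an unadjusted p under 0.05. That fit called 0.374% of all probe sets lower and 0.894% higher. The share of all probe sets with an unadjusted p under 0.05 was not counted. The pairing leaves 1 residual degree of freedom. The standard errors of the members (0.29 to 0.34) therefore follow a trend fitted over all probe sets more than the spread of each gene. When arrays were centred on the hybridization spike-ins instead, all 39 were called lower with a median of -1.71. The median of all probe sets tested was then -0.34, 31.5% of them were called lower and 9.66% higher, and 23.5% of all calls were higher, against 48.7% after median centring.

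How close the control arrays were on these genes depended on the scale. As deposited, the control signal in experiment 2 was within 1.3 times that of experiment 1 for 38 of the 39 genes, against 50.3% of all probe sets tested, and AT4G13170 was the exception at 1.41 times. After median centring it was within that limit for 10 of the 39, against 33.4%. All 39 were then higher on the control array of experiment 2, with a median ratio of 1.40, against 1.33 over all probe sets. Across the 39 genes the centred log2 signals of both control arrays had a Pearson r of 0.983, and those of both KIN10 arrays 0.940. The changes in experiment 1 and in experiment 2 had an r of 0.658, or 0.874 without AT1G15250. Points on these scales share arrays and are genes, not replicates, so no test is attached.

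**Figure D2:**
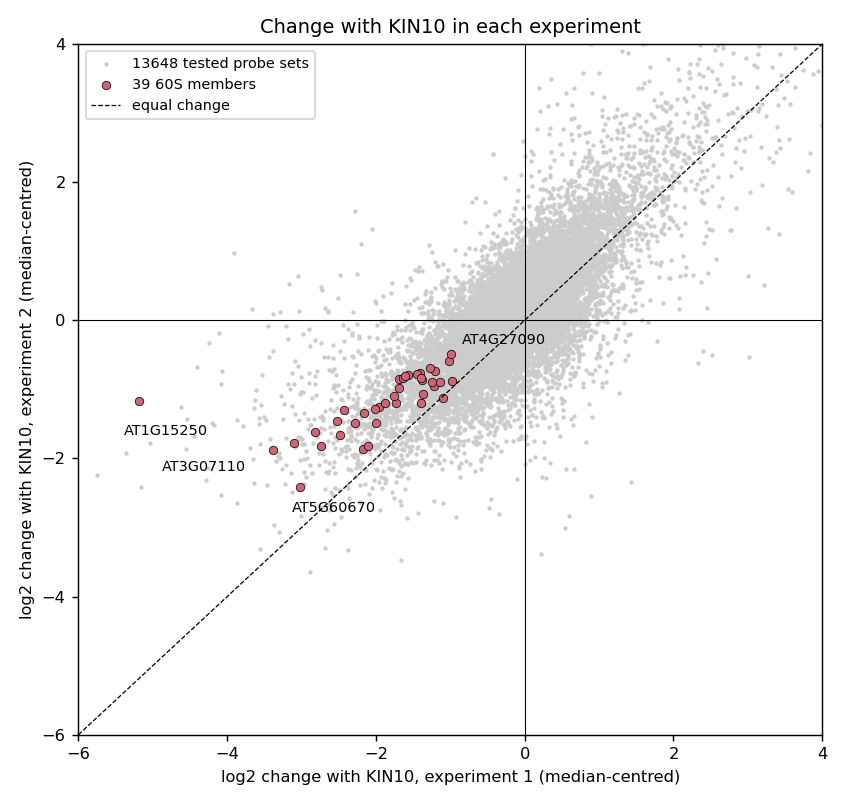
Log2 change with KIN10 in experiment 1 (horizontal) and experiment 2 (vertical) after median centring, for the 39 genes (red) and all 13648 probe sets tested (grey, 106 of them outside the axes). All red points lie in the lower left quadrant, and all but 1 lie above the dashed line of equal change, which means a larger fall in experiment 1.

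Proteins of the exit tunnel come first. L4 and L17 reach with long loops into the tunnel wall, as ribosome structures of other species show, and all 4 measured genes fell. AT5G02870 of L4 had signals of 29455 with control DNA and 9417 with KIN10 in experiment 1, and 25117 and 8797 in experiment 2. It was 2.76-fold lower (-1.47 ± 0.34 on the log2 scale, mean ± limma SE, 2 arrays in each group). Here and below this SE mostly follows the trend over all probe sets, not the spread between the experiments. The partner of AT5G02870, AT3G09630, changed from 22442 to 10385 (experiment 1) and 21667 to 10435 (experiment 2). It was 1.96-fold lower (limma, adjusted p = 0.0185). Both experiments gave AT5G02870 the larger fall, by 0.53 and 0.46 on the log2 scale. For L17, AT1G27400 was 3.04-fold lower and AT1G67430 2.16-fold, again in the same order in both experiments (differences of 0.51 and 0.47).

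L19, L26 and L35 sit around the mouth of the tunnel, where the new chain emerges, and all 6 measured genes fell. The L19 genes were the least alike of these. AT3G16780 changed from 6574 to 994 (experiment 1) and 5684 to 1479.5 (experiment 2), a 4.66-fold lower level (log2 change -2.22 ± 0.30). AT4G02230 changed from 14909.6 to 6591 (experiment 1) and 16338 to 8134 (experiment 2) and was 1.97-fold lower (-0.98 ± 0.34). The gap between them was 1.55 and 0.94 in experiments 1 and 2, so AT3G16780 was reduced more each time. The L26 genes AT5G67510 (3.63-fold) and AT3G49910 (3.14-fold) fell by more similar amounts. On the log2 scale they differed by 0.41 in experiment 1 and by only 0.01 in experiment 2. Among the L35 genes AT3G09500 was 2.91-fold lower and AT2G39390 2.16-fold.

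L10a forms the mobile L1 stalk, past which used transfer RNA leaves the ribosome. All 3 of its genes were measured and all fell. AT5G22440 had signals of 7152 with control DNA and 1771 with KIN10 in experiment 1, and 7498 and 1703 in experiment 2, and was 3.90-fold lower (log2 change -1.96 ± 0.31, adjusted p = 6.03e-09). PGY1 (AT2G27530), known for mutants with altered leaf patterning, changed from 18531 to 8293 (experiment 1) and 16725 to 7208 (experiment 2) with a log2 change of -1.07 ± 0.34 (adjusted p = 0.00708). AT1G08360 behaved much like PGY1, at 2.03-fold lower. AT5G22440 fell further than AT1G08360 by 0.96 and 0.92 and further than PGY1 by 0.85 and 0.92 in experiments 1 and 2, which makes it the paralogue that stands apart in this family.

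L12 lies at the base of the other stalk, where translation factors bind, and all 3 of its genes fell in a fixed order. AT5G60670 gave 7778 with control DNA and 1017 with KIN10 in experiment 1, and 8198 and 1229 in experiment 2. Its log2 changes were -3.03 and -2.42, and it was 6.60-fold lower on average (-2.72 ± 0.30). After median centring it was the only member with at least a 4-fold fall in each experiment, against 0.55% of all probe sets. As deposited, 6 members had such a fall, against 0.945%. AT2G37190 was 3.36-fold lower and AT3G53430 2.36-fold. The gap between the first and the last was 1.39 and 1.58 in experiments 1 and 2. On the control arrays AT3G53430 read 20955 and 20557, and with KIN10 7175 and 9209.

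The other 23 genes belong to the remaining families, which were not grouped by their place in the subunit. All 23 were lower in both experiments, and 22 of them were called lower. L13a and L7, with 4 measured genes each, showed how unequal paralogues can be. In the L13a family AT3G07110 changed from 20025 to 2049.8 (experiment 1) and 20103 to 4396 (experiment 2), so 10.2% of the control signal remained in experiment 1. It was 6.18-fold lower on average (-2.63 ± 0.33). The other L13a genes were 2.45-fold (AT5G48760), 2.16-fold (AT4G13170) and 2.12-fold (AT3G24830) lower, and their order among themselves was not the same in both experiments. AT3G07110 and AT3G24830 had control signals of about the same size, 20025 and 18813 in experiment 1, and the gap between their falls was 1.97 and 1.11 in experiments 1 and 2.

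In the L7 family AT1G80750 was 5.42-fold lower, with signals of 4596 with control DNA and 570.1 with KIN10 in experiment 1, and 5206 and 1218 in experiment 2. AT2G44120 followed at 4.05-fold, and its log2 changes of -2.18 and -1.86 were closer together than those of AT1G80750 (-3.10 and -1.78). AT2G01250 was 2.42-fold lower. AT3G13580 was among the least changed of all members, changing from 5524 to 2917 (experiment 1) and 6578 to 3494 (experiment 2), which is 1.74-fold lower (-0.80 ± 0.31, adjusted p = 0.0379). After median centring its KIN10 value of experiment 2 overlapped the control value of experiment 1, which happened for no other member. The gap between AT2G44120 and AT3G13580 was 1.17 and 1.26 in experiments 1 and 2.

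L37, a small zinc-binding protein, had the member with the largest average fall and also the least certain one. AT1G15250 had signals of 1376 with control DNA and 40.2 with KIN10 in experiment 1, and 1149 and 412 in experiment 2. The KIN10 signal of experiment 1 lay at the 12.6th percentile of its array, the only member value below the 40th percentile. The log2 changes were -5.19 and -1.16, so the average of 9.03-fold lower describes neither experiment. The main limma fit called the gene lower with the smallest adjusted p of all members (2.72e-18). Its SE of 0.34 mostly follows the trend over all probe sets, not the spread between these changes. With a robust prior in limma the gene was not called (adjusted p = 0.525). The other L37 genes were more regular: AT3G16080 was 3.98-fold lower (-2.52 and -1.46 in experiments 1 and 2) and AT1G52300 2.69-fold (-1.76 and -1.09). AT1G15250 fell more than AT3G16080 in experiment 1 and less in experiment 2.

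L14 held the only gene that was not called. AT4G27090 changed from 20665 to 11039.9 (experiment 1) and 19328 to 11064 (experiment 2), with a log2 change of -0.74 ± 0.34 and an adjusted p = 0.0869 (limma). Its signals did not overlap between groups, and limma called it lower on the deposited scale (adjusted p = 0.00121) and the spike-in scale (adjusted p = 9.23e-05). Its paralogue AT2G20450 changed from 5949 to 1300 (experiment 1) and 5690.4 to 1636 (experiment 2) and was 3.69-fold lower (-1.88 ± 0.30). The gap between them was 1.29 and 0.99 in experiments 1 and 2.

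In L15 and L18a the paralogues were closer together. The L15 genes AT4G17390 (4.19-fold) and AT4G16720 (3.37-fold) differed by 0.32 and 0.32, the most repeatable gap of any pair. L18a showed almost no gap on average: AT3G14600 was 2.33-fold lower and AT2G34480 2.30-fold, in opposite orders in experiments 1 and 2. For L7a, AT2G47610 was 2.52-fold lower and AT3G62870 1.91-fold, with a gap of 0.71 and 0.10 in experiments 1 and 2. A single gene was measured for L6, L9, L13 and L18. The L9 gene AT4G10450, whose protein lies close to the site where elongation factors act, had one of the larger falls, with signals of 8161 with control DNA and 1299 with KIN10 in experiment 1, and 9250.5 and 2101 in experiment 2 (4.86-fold lower, -2.28 ± 0.31). AT1G18540 of L6 (2.12-fold), AT5G23900 of L13 (2.18-fold) and AT5G27850 of L18 (2.26-fold) fell by less.

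**Figure D3:**
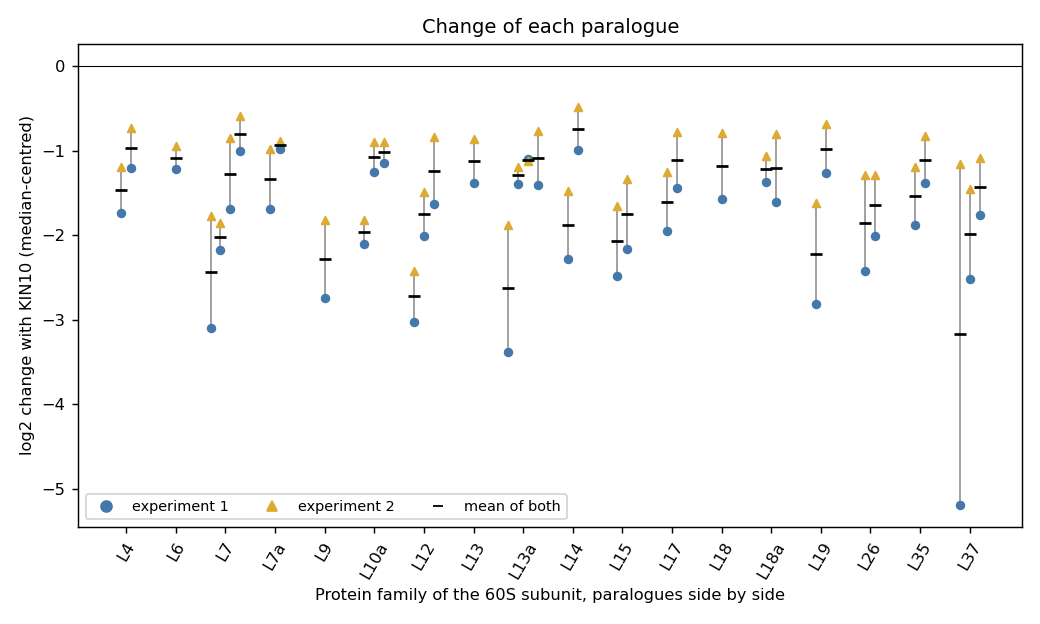
Log2 change with KIN10 (median-centred) of each of the 39 genes, with paralogues of one protein family side by side. Circles are experiment 1, triangles experiment 2 and black bars their mean, and the long line in L37 is AT1G15250 (-5.19 and -1.16).

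Counted over the 14 families with at least 2 measured genes, there were 30 pairs of paralogues, and in 25 of them (83.3%) the same gene fell more in both experiments. Among 711 pairs of members from different families that share was 81.9%. The median gap between paralogues was 0.65 on the log2 scale, against 0.53 between members of different families. These medians were not tested against each other. In families with more than 2 measured genes the pairs share genes, so the 30 pairs are not independent. A gap of at least 2-fold in each experiment was found for 4 pairs, namely AT1G80750 and AT3G13580, AT2G44120 and AT3G13580, AT5G60670 and AT3G53430, and AT3G07110 and AT3G24830. How many of the 711 pairs from different families had such a gap was not counted, so it is not shown to be a trait of paralogues. With 2 experiments no exact test of a single pair can reach a threshold of 0.05, and these gaps are descriptions.

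Probe brightness moved with the size of the fall. In 22 of the 30 pairs the paralogue with the dimmer control signals had the larger mean fall, in 7 the brighter one did, and in 1 the control arrays disagreed on which was dimmer. The dimmer one fell more in both experiments in 17 of the 30. Some of these pairs share a gene, so they are not independent counts. The 13 members that were dimmest on the control arrays had a median log2 change of -1.88, and 5 of them were at least 4-fold lower. For the 13 brightest the median was -1.27, and 1 was at least 4-fold lower. Across the 39 members, mean log2 signal and change had a Pearson r of 0.685 (0.572 without AT1G15250), and across all 13648 probe sets 0.0709. The mean signal includes the KIN10 arrays, so part of this relation is built in. The part that brightness plays in the sizes of the falls was not tested.

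How much the experiments differed depended on the scale. After median centring the fall was larger in experiment 1 for 38 of the 39 genes, with medians of -1.70 and -1.12 in experiments 1 and 2, and AT4G13170 was the exception (-1.09 and -1.12). Of all probe sets that were lower in both experiments, 63.8% had the larger fall in experiment 1. With the values as deposited it was larger in experiment 1 for 30 of the 39, against 38.4% of such probe sets, and the medians were -1.61 and -1.44. The fold of experiment 1 and that of experiment 2 were more than 1.5 times apart for 22 members after median centring (32.4% of all probe sets) and for 6 as deposited (29.6%). A fall of at least 2-fold in both experiments was seen for 22 members after median centring (6.4% of all probe sets), for 36 as deposited (8.2%) and for 38 on the spike-in scale (12.9%). All 39 were lower in both experiments on each of the 5 scales tried, a property of 35.3% of all probe sets after median centring.

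**Figure D4:**
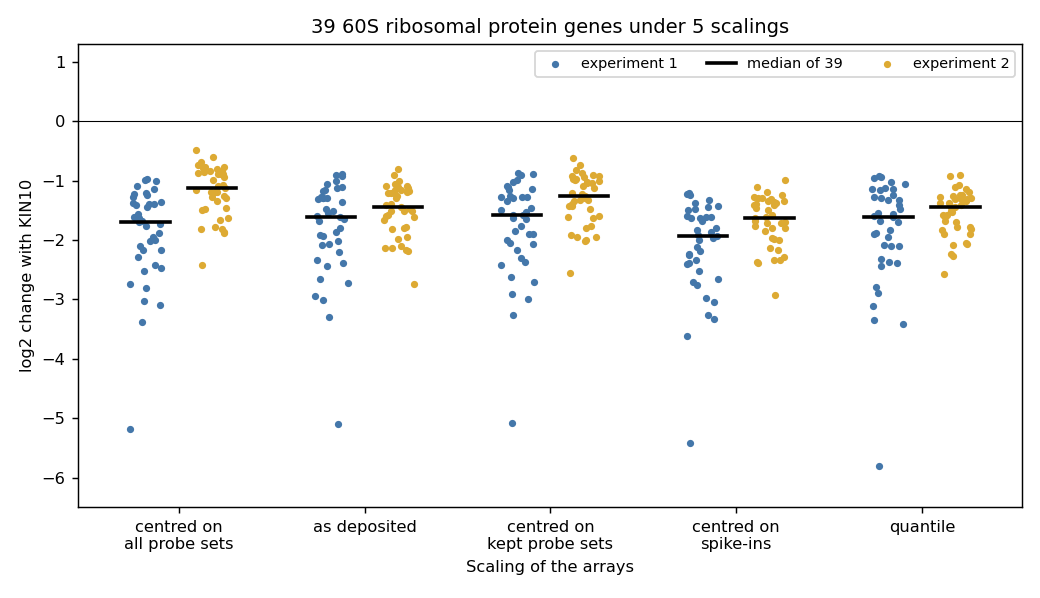
Log2 change with KIN10 of the 39 genes in experiment 1 (blue) and experiment 2 (yellow) under 5 scalings of the arrays. Each point is a gene and each black bar the median of 39, which lies between -1.93 (experiment 1, spike-ins) and -1.12 (experiment 2, centred on all probe sets).

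Other genes of the ribosome were read from lists of loci. Of 38 tested genes for further 60S proteins and the acidic stalk proteins, 31 were called lower, 7 were not called and none was called higher. The median log2 change of the 38 was -1.40. The extremes were AT3G06680, which was 5.81-fold lower, and AT3G51190 (0.55 ± 0.44). Of 42 tested genes for the 40S subunit, 40 were called lower and 2 were not called. Beside both lists, 15.5% of all tested probe sets were called lower and 14.7% higher. The median of the 42 was -1.54, from AT1G23410 at 6.09-fold lower to AT2G16360 (0.35 ± 0.41). These lists held 74 and 96 loci, of which only 46 and 48 had a value. The filter on low signals had removed 8 and 6 of the measured genes. Both cytosolic subunits therefore had similar medians, and the difference between them was not tested.

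Factors that assemble ribosomes in the nucleus had the lowest median. All 14 tested genes, out of 30 listed loci, were called lower, against 15.5% of all tested probe sets. The median log2 change of these genes was -1.89. They ran from AT3G22660 (7.91-fold lower) to AT1G50920 (2.16-fold lower). The log2 changes of AT3G22660 were -4.54 in experiment 1 and -1.43 in experiment 2, so its average describes neither. Its KIN10 signal was only 90 in experiment 1, against 605.6 in experiment 2. For translation elongation 1 of 12 listed genes was tested, AT5G19510, with a change of -0.74 ± 0.34 that did not pass the test. The tested nuclear genes for the large subunit of the plastid ribosome were not among the calls. Of 25 listed loci, 7 were tested. None of the 7 passed in either direction (limma, adjusted p from 0.103 to 0.943). A higher value with KIN10 in both experiments was seen for 5 of the 7 (4 of the 7 as deposited). The matching share of all probe sets was not counted. The median of the 7 was 0.37, from AT4G01310 (0.04 ± 0.30) to AT5G65220 (0.68 ± 0.32). Without an adjustment, 1 of the 7 had a p under 0.05 in limma.

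**Figure D5:**
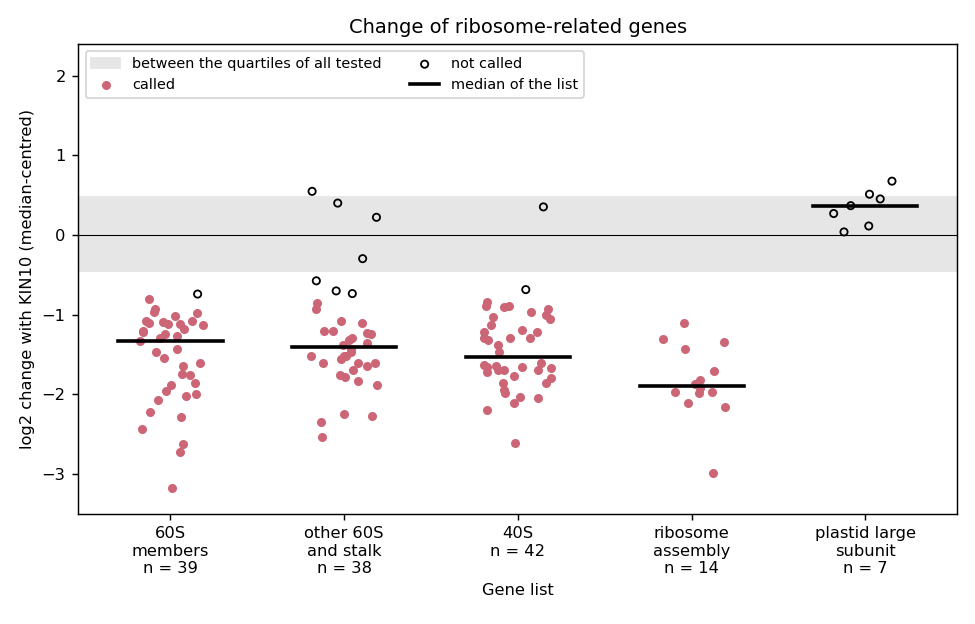
Mean log2 change with KIN10 (median-centred) for the 39 members and 4 further lists of ribosome-related genes. Filled points were called, open points were not, black bars are list medians (-1.34 for the members and 0.37 for the plastid list) and the grey band runs between the quartiles of all tested probe sets.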

How the data were processed

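Per the submitters' processing notes GCOS 1.0 made the values, with no settings named in the sources used here. The authors deposited a linear intensity for each probe set, and the mean intensity after trimming 2% at each end was between 1500.13 and 1500.15 on the 4 arrays. The number of arrays limits the precision. The members and gene lists were chosen with earlier results of these data known.

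For log2 signals, 1 value at 0 was set to the lowest positive value of that array. The median of the 22746 probe sets that are not Affymetrix controls was then subtracted on each array. Those with a mean log2 signal under the 40th percentile were left out, and 13648 were tested. KIN10 was compared with control by limma 3.58.1 in R 4.3.3 (lmFit, eBayes with an intensity trend, 1311 prior and 1 residual degree of freedom), with the experiment as a block and Benjamini-Hochberg adjustment over all tested probe sets. The threshold was an adjusted p under 0.05. Pairing by experiment follows the design text, and arrays of the same number deviated together from their group means (r = 0.705 across probe sets).

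Gene names came from the platform annotation and from Entrez numbers in a RefSeq table (TAIR10.1), which matched 13436 of 13513 single names. All probe sets of listed 60S loci with a single name were described. Of other lists only the tested genes with the lowest and the highest change were named. Alternatives changed scaling, filter, offset, variance model, block and arrays.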

Additional observations from a re-analysis of the deposited data

How the results depend on the processing

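No member changed direction under any of the 16 alternatives. The filters, the robust prior and the fits of all arrays with no intensity trend or no block leave a gene's log2 change as it is. Only the other scalings, the offset and the left-out arrays could have changed a direction. The number called lower was between 37 and 39 under the other scalings (values as deposited, kept probe sets, spike-ins, quantile, cyclic loess), an offset of 16, filters at the 20th and 60th percentiles, a robust prior and no intensity trend. Between 11.0% (filter at the 20th percentile) and 31.5% (spike-ins) of all tested probe sets were called lower under those settings. With no filter 32 members and 7.48% of all probe sets were called lower. The median log2 change under these settings lay between -1.71 (spike-ins) and -1.31 (filter at the 60th percentile, which left 38 members). With no replicate block limma called 173 probe sets and 0 members. With 1 array left out and no block, limma called between 85 and 869 probe sets and between 0 (without control replicate 1, control replicate 2 or KIN10 replicate 1) and 7 members (without KIN10 replicate 2). The median log2 change was then between -1.93 (without KIN10 replicate 2) and -0.92 (without KIN10 replicate 1). These fits have fewer arrays and no pairing, and the lone array of a group is assumed to vary like the other group. Of 623 single-gene comparisons with the alternatives, 426 kept their call, 192 lost it and 5 gained it.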

Other observations

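Loci of the list also stand on 2 probe sets that carry several gene names, and these can read the sum of their genes. Both were called lower (limma), with log2 changes of -1.05 and -0.97. The 39 members lie on all 5 nuclear chromosomes, with 7, 8, 11, 6 and 7 genes on chromosomes 1 to 5.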
